A study of Mus musculus with 20 samples.

Results

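The livers of mice fed a high-fat, high-fructose (HFHF) diet were compared with the livers of mice on standard chow, gene by gene across functions. The 12 libraries compared, of 20 in the series, were chosen by their diet and treatment labels. They comprise 7 libraries of C57BL/6NTac mice put on the HFHF diet and given vehicle (phosphate-buffered saline, PBS), and 5 libraries of C57BL/6NTac mice that received no treatment and standard chow. The other 8 libraries, from mice on the HFHF diet given an adeno-associated virus (AAV8) carrying a guide RNA (gRNA) against Flcn, entered the statistical fit only to share its estimate of the spread. No transgene or engineered allele is named for either group compared. Diet and vehicle differed together between the groups, so the effects of the diet and of the saline cannot be told apart. The sources used here give no age, sex, time on the diet or time of tissue collection. They do not say whether each library came from a separate animal, so the p-values reflect only how far these samples varied.

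Fat accumulates in hepatocytes when fatty acid uptake and synthesis exceed oxidation and export, and fructose feeds synthesis because its breakdown bypasses the main control step of glycolysis. In steatohepatitis injured fatty hepatocytes are accompanied by macrophages and lymphocytes that enter the liver, and hepatic stellate cells lay down collagen. Cholesterol synthesis is switched off by the sterol-sensing SREBP2 system when the cell holds enough cholesterol.

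Total expected counts were 14131976 to 16285324 per chow library and 15244760 to 18194089 per HFHF library. Levels are in CPM, counts scaled to a common library size, and differences are log2 fold changes of HFHF minus chow with their standard errors (SE). A gene was called when its adjusted p from edgeR's quasi-likelihood test was under 0.05. Each SE was worked back from that test, as the size of the log2 fold change over the square root of the F statistic. On the first principal component of the 12 libraries, with 67.7% of the variance, chow libraries scored 53.8 to 67.2 and HFHF libraries -53.2 to -32.7. The second component held 6.55%. Every pair of libraries within a group differed by more than sampling noise, and each was counted as 1 sample. The share of counts taken by Alb, the albumin gene and the defining marker of hepatocytes, was 5.45% ± 0.651 (SD, n = 5) in chow and 4.39% ± 0.515 (SD, n = 7) in HFHF (exact permutation test, two-sided, p = 0.0152).

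Of 13667 genes tested, 3847 (28.1%) were higher and 3947 (28.9%) lower in HFHF livers, together 57.0%, and 5873 were not called. Rises were larger than falls. Called rises had a median of 0.93 and called falls a median of -0.47 on the log2 scale. Changes of at least 2-fold numbered 1792 higher (13.1% of genes tested) and 578 lower (4.23%), and changes of at least 16-fold numbered 95 higher and 20 lower. In 2571 genes (18.8%) every HFHF library lay above every chow library, and in 2479 (18.1%) every one lay below. The median over all genes tested was -0.01. With upper-quartile scaling, which moved that median to 0.08, 60.7% of the calls were higher, against 49.4% here.

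**Figure D1:**
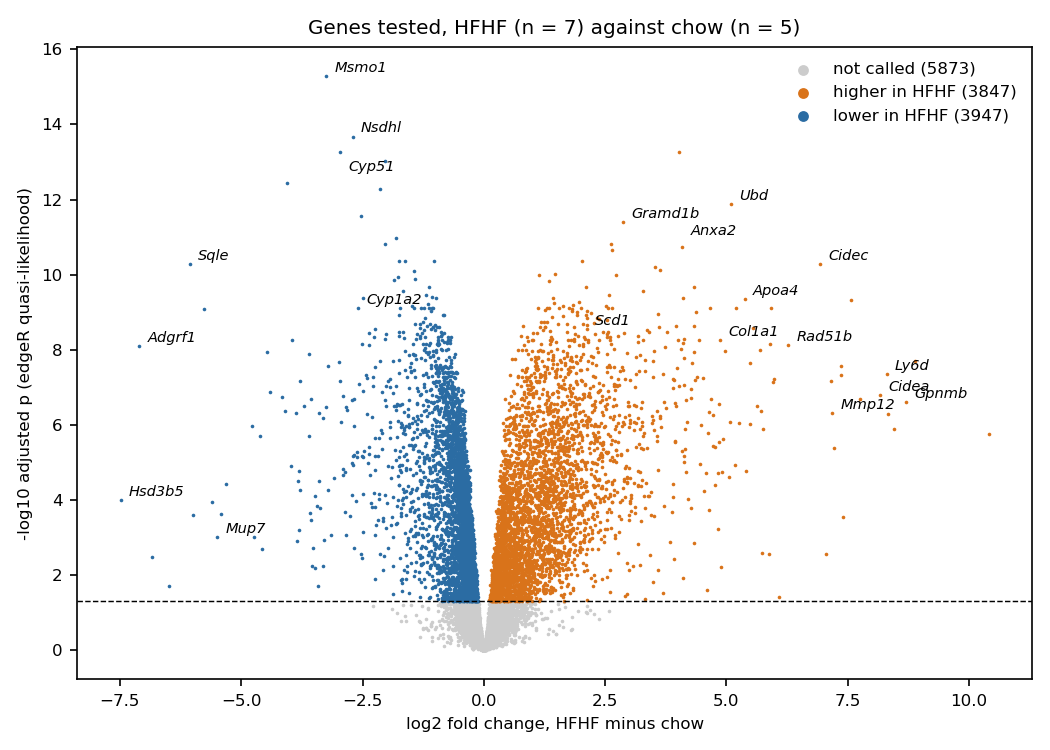
Log2 fold change of HFHF minus chow (x) against -log10 of the adjusted p (y) for the 13667 genes tested, with called genes coloured and selected genes of the text labelled. The right arm is fuller than the left beyond 2-fold, with 1792 genes higher and 578 lower.

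Genes of the lipid droplet rose as a group and included several of the largest rises in the liver. Of 27 measured members of the lipid droplet list, 21 were higher, 2 lower and 4 not called, with a median of 0.92. Cidec (chromosome 6, 113424634 to 113435760, minus strand, GRCm38), whose protein fuses droplets into larger ones, held 0.294, 0.531, 0.303, 0.817 and 1.32 CPM in the 5 chow libraries. In HFHF libraries the lowest was 72.2, the median 77.2 and the highest 92.6 CPM. The lowest HFHF library was 54.6 times the highest chow library, and the HFHF libraries lay close together (log2 fold change 6.94, SE 0.36, adjusted p = 5.31e-11). Cidea, a related droplet protein typical of brown fat, held 0.0757 to 0.223 CPM in chow and from 16.4 through a median of 46.5 to 79.98 CPM in HFHF. It was thus far more uneven among HFHF livers than Cidec (log2 fold change 8.16, SE 0.80).

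Droplet coat and uptake genes rose less steeply. Plin2, the main perilipin of hepatocyte droplets, held 262, 416, 323, 468 and 379 CPM in chow and 539, 763 and 929 CPM as lowest, median and highest in HFHF (log2 fold change 1.01, SE 0.14, adjusted p = 3.84e-06). Its groups did not overlap. Plin4 was 11.3 ± 4.36 CPM (SD, n = 5) in chow and 116 ± 18.7 CPM (SD, n = 7) in HFHF. Cd36, a fatty acid transporter of the plasma membrane, rose from 71.7 ± 26.7 to 272 ± 27.4 CPM. Mogat1, an acyltransferase of triglyceride synthesis (log2 fold change 2.89, SE 0.36), Fabp4, a fatty acid binding protein of adipocytes and macrophages (2.19, SE 0.22), Pparg, the nuclear receptor that drives fat storage (1.09, SE 0.18), and Hsd17b13, a droplet-bound dehydrogenase (0.83, SE 0.12), were also higher.

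Fatty acid synthesis genes divided. Of 23 members, 10 were higher, 7 lower and 6 not called, with a median of 0.16. The share higher, 43.5%, was above the 28.1% over all genes tested, and the share lower, 30.4%, was near the 28.9%. Chow replicates 1 and 3 each bore on this list: without replicate 1 the median was 0.59, and without either library 4 members were lower. Scd1 (chromosome 19, 44394455 to 44407879, minus strand), the desaturase that makes oleate, held 7613, 8772, 6570, 5069 and 5493 CPM in chow and 21003, 27301 and 34719 CPM as lowest, median and highest in HFHF. Its lowest HFHF library was 2.39 times its highest chow library (log2 fold change 2.12, SE 0.18, adjusted p = 2.80e-09). Fasn, the fatty acid synthase, was 301 ± 33.4 CPM in chow and 627 ± 202 CPM in HFHF (adjusted p = 0.00452), with 1073 CPM in HFHF replicate 2 and 498 to 629 CPM in the others. Acaca, the carboxylase before it (0.96, SE 0.17), and Srebf1, the gene of the lipogenic regulator SREBP1 (0.96, SE 0.18), rose by like amounts. The enzymes that supply acetyl-CoA in the cytosol went the other way. Acss2, which makes it from acetate, fell from 212 ± 62.4 to 52.1 ± 8.39 CPM (log2 fold change -2.03, SE 0.16), and Acly, which makes it from citrate, from 301 ± 59.3 to 180 ± 65.5 CPM with overlapping groups (-0.75, SE 0.25, adjusted p = 0.0173, and 0.0711 without chow replicate 3). Mlxipl, the gene of the carbohydrate sensor ChREBP, fell from 249 ± 41.4 CPM to 146 ± 8.98 CPM.

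Cholesterol synthesis was the most uniform of the metabolic groups. Of 25 members of the synthesis and uptake list, 0 were higher, 24 lower and 1 not called, with a median of -1.77. Sqle (chromosome 15, 59315077 to 59331192, plus strand), squalene epoxidase, held 70.5, 56.5, 68.6, 90.8 and 92.6 CPM in chow. In HFHF it ranged from 0.362 through a median of 0.958 to 3.17 CPM. The lowest chow library was 17.8 times the highest HFHF library (log2 fold change -6.06, SE 0.31, adjusted p = 5.31e-11). The falls of smallest p over the whole table were the later enzymes Msmo1 (-3.25, SE 0.10, adjusted p = 5.07e-16), Nsdhl (-2.70, SE 0.11) and Cyp51 (-2.96, SE 0.12). Hmgcs1, a synthase early in the pathway, fell from 619 ± 113 to 151 ± 15.2 CPM. The SREBP2 gene Srebf2 was at -0.89 (SE 0.08).

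Among 24 genes of sterol efflux and lipoproteins 11 were higher, 6 lower and 7 not called, with a median of 0.23. Abcg5 and Abcg8, the paired subunits of the transporter that secretes cholesterol into bile, rose by 2.10 (SE 0.16) and 1.45 (SE 0.17). Gramd1b, which moves cholesterol from the plasma membrane to the endoplasmic reticulum, had one of the 3 smallest p-values among rises of genes with an assigned name and went from 1.93 ± 0.310 to 14.2 ± 1.92 CPM (adjusted p = 3.93e-12). Apoa4 (chromosome 9, 46240696 to 46243459, plus strand), an apolipoprotein of triglyceride-rich particles, held 39.1, 56.5, 41.8, 92.0 and 81.0 CPM in chow and 1912, 2690 and 3160 CPM as lowest, median and highest in HFHF. The lowest HFHF library was 20.8 times the highest chow library (log2 fold change 5.38, SE 0.34, adjusted p = 4.38e-10).

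Sugar breakdown rose while sugar production fell in part. Of 24 members of the fructose and glycolysis list 16 were higher, 2 lower and 6 not called, with a median of 0.63. Khk, which phosphorylates fructose, rose from 186 ± 18.6 to 273 ± 29.2 CPM (0.55 on the log2 scale, SE 0.09). Pklr, the liver pyruvate kinase, was at 1.22 (SE 0.18). Hk2, a hexokinase that adult hepatocytes hardly express, held 0.832 to 1.56 CPM in chow and 16.2, 21.4 and 25.0 CPM as lowest, median and highest in HFHF (4.10, SE 0.27, adjusted p = 4.13e-10). Of 18 genes of gluconeogenesis and glycogen, 4 were higher, 8 lower and 6 not called (median -0.66), among them G6pc, the last step of glucose release, at -1.41 (SE 0.42, adjusted p = 0.00786).

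Fatty acid oxidation showed no common direction. Of 34 members, 11 were higher, 8 lower and 15 not called, with a median of 0.05. These shares, 32.4% higher and 23.5% lower, were near the 28.1% and 28.9% over all genes tested. Cpt1a, the entry step into mitochondria, rose from 269 ± 23.3 to 370 ± 69.8 CPM with overlapping groups (0.46, SE 0.13, adjusted p = 0.00433). Acot1, a target of the fasting receptor PPARA, fell by 1.24 (SE 0.18), and Acadm and Ehhadh, enzymes of mitochondrial and peroxisomal oxidation, were not called (0.01, SE 0.10, and 0.21, SE 0.15). Fgf21, a hormone that the stressed or fasted liver secretes, rose from 0.412 ± 0.356 to 6.37 ± 2.51 CPM (3.93, SE 0.40, adjusted p = 6.51e-08, and 4.62 without chow replicate 4). Without chow replicate 2, 3 or 4, or with upper-quartile scaling, 5 oxidation genes were lower. Mitochondrial respiration genes numbered 3 higher, 7 lower and 22 not called of 32 (median -0.11). The 7 lower became 12 in a fit of only the 12 libraries compared, 3 with upper-quartile scaling, and 4 with no low-count filter or without chow replicate 1 or 2.

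Collagen and other matrix genes rose almost without exception. Of 34 matrix genes 32 were higher, 1 lower and 1 not called, with a median of 1.69. Col1a1 (chromosome 11, 94936224 to 94953042, plus strand), a chain of type I collagen, held 2.57, 2.46, 2.42, 3.57 and 3.03 CPM in chow. In HFHF the lowest library held 54.8, the median one 68.5 and the highest 122 CPM (log2 fold change 4.87, SE 0.36, adjusted p = 5.49e-09). HFHF libraries fell into 2 separate ranges. Replicates 2, 6 and 7 held 101, 112 and 122 CPM, and replicates 1, 3, 4 and 5 held 68.5, 59.9, 59.3 and 54.8 CPM. Col3a1 of type III collagen held 187, 221 and 247 CPM in replicates 2, 6 and 7 and 144 to 157 CPM in the other 4, against 18.3 ± 1.85 CPM in chow. The lists showed no such clear split. On the log2 scale relative to the chow mean, the median level of the matrix list was 1.82, 1.77 and 1.65 in replicates 2, 6 and 7. In replicates 1, 3, 4 and 5 it was 1.58, 1.41, 1.33 and 1.22. For matrix crosslinking and turnover, replicate 7 (1.31) lay below replicate 1 (1.53). Lum, which organises collagen fibrils, was at 2.55 (SE 0.26), Thbs1, which releases latent TGF-beta, at 2.54 (SE 0.20), and Postn, a matrix protein of scars, at 2.14 (SE 0.20).

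Of 31 measured genes of matrix crosslinking and turnover, of 33 listed, 25 were higher, 2 lower and 4 not called, with a median of 1.75. Timp1, the main inhibitor of matrix proteases, had 0 counts in all 5 chow libraries and 2.50 to 5.23 CPM in HFHF. Against a floor of 3 counts over the chow group it was 82.7-fold higher, and the lower limit of its 95% counting interval was 67.0-fold. Mmp12, the elastase of macrophages, held 0.0664 to 0.467 CPM in chow and 15.4, 48.6 and 63.3 CPM as lowest, median and highest in HFHF (7.18, SE 0.77). Mmp13, a collagenase (5.97, SE 0.62), Lox, which crosslinks collagen (3.25, SE 0.39), and Tgfb1, the central cytokine of fibrosis (0.99, SE 0.21), also rose.

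Of 18 measured stellate cell genes, of 21 listed, 17 were higher, 0 lower and 1 not called, with a median of 1.30. In bulk tissue more cells of a type and more RNA per cell cannot be told apart, and this holds for each cell type below. Lrat, which stores vitamin A in quiescent stellate cells, rose from 18.03 ± 7.05 to 41.2 ± 8.53 CPM with overlapping groups, Des, their intermediate filament, from 2.67 ± 0.465 to 5.22 ± 0.724 CPM, and Pdgfrb, their growth factor receptor, from 5.82 ± 0.898 to 16.3 ± 2.76 CPM. Acta2, the smooth muscle actin of activated stellate cells, held 2.28, 1.66, 3.48, 2.08 and 2.18 CPM in chow and 3.29, 5.92 and 7.01 CPM as lowest, median and highest in HFHF. One chow library lay within the HFHF range (1.24, SE 0.23, adjusted p = 9.44e-05). Of 7 measured markers of mesothelium, smooth muscle and portal fibroblasts, of 13 listed, 6 were higher and 0 lower. Their summed level was 26.3 to 35.1 CPM in chow and 69.7 to 101 CPM in HFHF, and its part in the matrix result was not tested. The smooth muscle myosin gene Myh11 was not called (0.05, SE 0.24).

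**Figure D2:**
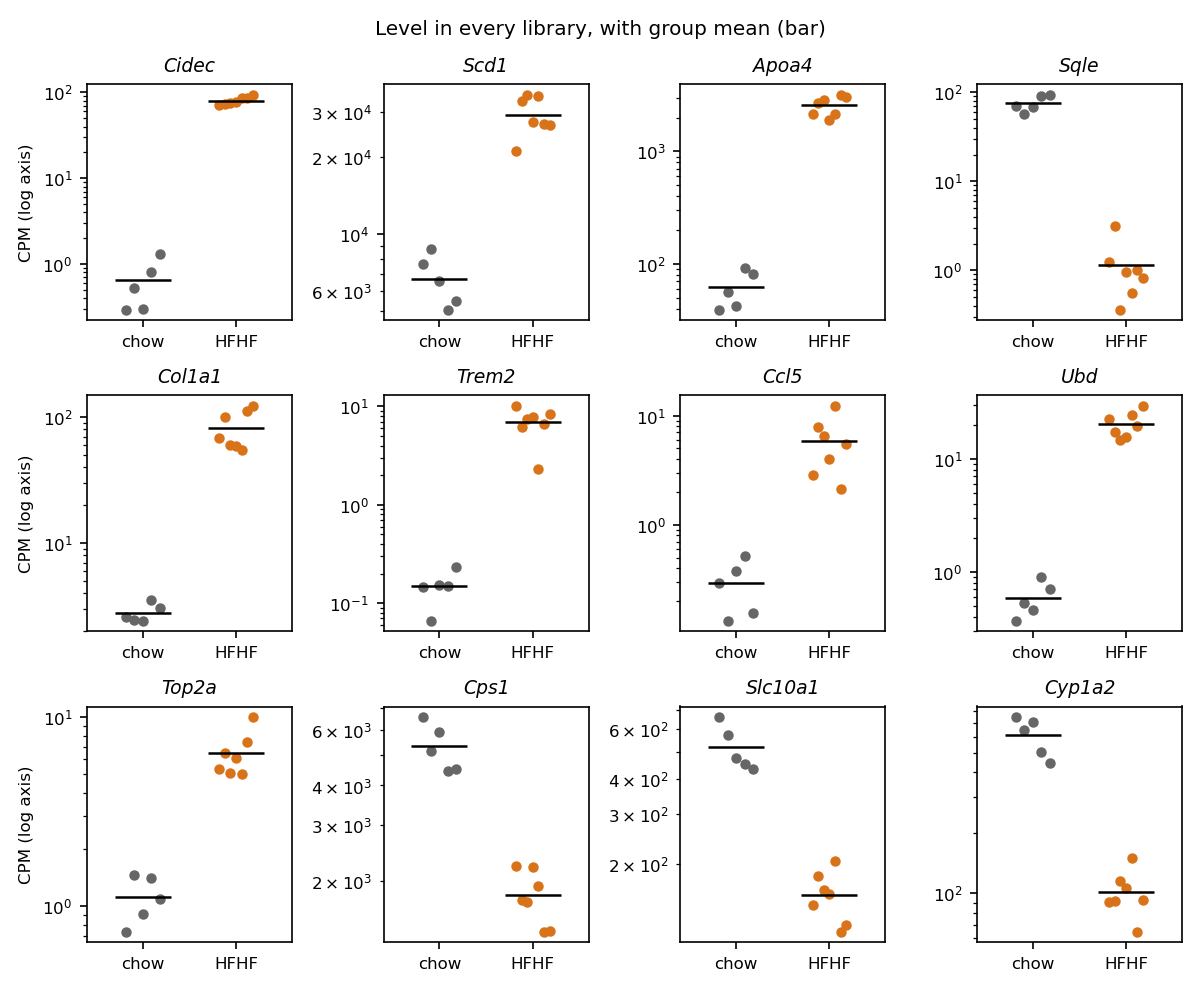
CPM on a log axis for 12 genes, 1 panel each, with every chow library (n = 5) and every HFHF library (n = 7) as a point and the group mean as a bar. Cidec, Col1a1, Trem2 and Ubd lie wholly above chow in HFHF and Sqle, Cps1 and Cyp1a2 wholly below, and the 3 highest Col1a1 libraries of HFHF stand apart from the other 4.

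Markers of macrophages that enter the injured liver rose in nearly every case. Of 30 members, 28 were higher, 0 lower and 2 not called, with a median of 2.10. Gpnmb (chromosome 6, 49036546 to 49070929, plus strand), a lysosomal glycoprotein of lipid-laden macrophages, held 0.147, 0.133, 0, 0.0743 and 0.156 CPM in chow and 9.61, 42.8 and 90.7 CPM as lowest, median and highest in HFHF (8.71, SE 0.88, adjusted p = 2.47e-07). The highest HFHF library was 9.44 times the lowest, with replicate 5 lowest and replicate 1 highest. Trem2, the lipid receptor that marks the same cells, followed the same extremes, at 2.29 CPM in replicate 5 and 10.04 CPM in replicate 1, against 0.149 ± 0.0591 CPM in chow (5.49, SE 0.51). Lgals3, galectin-3, rose from 2.87 ± 0.698 to 57.8 ± 20.3 CPM, Itgax, an integrin of dendritic cells and macrophages, by 2.96 (SE 0.46), and Ccr2 and Cx3cr1, chemokine receptors of monocytes, by 3.20 (SE 0.31) and 3.48 (SE 0.35).

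Resident Kupffer cell markers divided, with 7 higher, 3 lower and 7 not called of 17. These shares, 41.2% higher and 17.6% lower, compare with 28.1% and 28.9% over all genes tested. The share called either way, 58.8%, was near the 57.0% over all genes tested. Timd4, the phosphatidylserine receptor of long-lived Kupffer cells, held 6.47, 4.78, 3.71, 5.35 and 6.85 CPM in chow and 0.320, 0.776 and 2.13 CPM as lowest, median and highest in HFHF. No HFHF library reached the lowest chow library (-2.36, SE 0.34, adjusted p = 6.04e-06). Marco, a scavenger receptor, fell as well (-2.24, SE 0.50). Clec4f, the lectin restricted to Kupffer cells, was not called (49.8 ± 11.7 and 39.9 ± 15.3 CPM, adjusted p = 0.331), nor was Vsig4, a complement receptor (0.37, SE 0.27). Cd5l, a secreted macrophage protein, rose by 1.64 (SE 0.31).

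Lymphocyte and antigen presentation genes rose from low levels. Of 16 measured markers of T, NK and cytotoxic cells, of 23 listed, 15 were higher and 1 lower, with a median of 2.02. Ccl5, a chemokine made by cytotoxic lymphocytes, held 0.133 to 0.520 CPM in chow and 2.13, 5.46 and 12.2 CPM as lowest, median and highest in HFHF (4.28, SE 0.45). Cd8a, of cytotoxic T cells, was 0.448 ± 0.238 CPM in chow and 2.01 ± 1.26 CPM in HFHF. HFHF replicate 5, lowest for Gpnmb and Trem2, was highest for Ccl5 and Cd8a (4.41 CPM), and replicate 6 was lowest for both (2.13 and 1.01 CPM). Cd4 was the exception that fell (-0.81, SE 0.34, adjusted p = 0.0432), and it was not called under 13 of 18 alternative settings (adjusted p up to 0.156). Gzmk, a granzyme, had 1 count over the chow libraries. The ratio of its counts pooled over each group, scaled to library size, was 49.5 (95% counting interval 8.67 to 1980). That count lay in chow replicate 4, and the fitted log2 fold change was 5.05, or 6.62 without that library. Gzmk did not pass the low-count filter in 5 of 18 alternative settings, each of which left out 1 HFHF library.

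Of 13 measured dendritic cell and MHC class II genes, 12 were higher and 0 lower, with a median of 2.03. H2-Ab1, a class II chain, rose from 14.2 ± 4.93 to 58.6 ± 8.997 CPM and Cd74, the invariant chain, from 48.9 ± 14.6 to 200 ± 25.1 CPM. B cell and plasma cell markers showed no such shift, with 1 higher, 1 lower and 10 not called of 12. Of 13 neutrophil genes listed only 4 had enough counts to be tested, and 3 of them were higher. The neutrophil surface gene Ly6g had 0 counts over the chow libraries and 3 over the HFHF libraries.

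Of 30 measured chemokines, cytokines and receptors, of 36 listed, 23 were higher, 2 lower and 5 not called, with a median of 1.64. Ccl2, which attracts monocytes, rose from 0.971 ± 0.630 to 5.59 ± 1.79 CPM (2.52, SE 0.36), and Cxcl10, which attracts T cells, from 1.81 ± 0.830 to 6.90 ± 1.83 CPM. Ccl4 had 2 counts over the chow libraries and a ratio of 31.3 (95% counting interval 8.49 to 262). Tnf had 6 counts over the chow libraries and 78 over the HFHF libraries and was not tested. Of 20 inflammasome and cell death genes 15 were higher, 1 lower and 4 not called (median 0.91), among them Nlrp3, an inflammasome sensor, at 1.42 (SE 0.32), Casp1, its protease, at 1.18 (SE 0.16), and Bcl2a1b, a survival factor of leukocytes, at 3.96 (SE 0.32). Il1b, the cytokine that Casp1 cleaves, rose by 0.95 (SE 0.31, adjusted p = 0.0115) with overlapping groups.

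Interferon-stimulated genes rose by modest amounts, led by 1 gene. Of 30 members, 25 were higher, 2 lower and 3 not called, with a median of 0.98. Ubd (chromosome 17, 37193892 to 37196095, plus strand), a ubiquitin-like modifier that interferon gamma and TNF induce, had the smallest p among rises of genes with an assigned name. It held 0.368, 0.531, 0.454, 0.891 and 0.700 CPM in chow and 14.5, 19.5 and 29.1 CPM as lowest, median and highest in HFHF (5.10, SE 0.25, adjusted p = 1.29e-12). The lowest HFHF library was 16.3 times the highest chow library. Gbp2, a guanylate-binding protein, rose by 2.09 (SE 0.31), Isg15, another ubiquitin-like protein, by 1.11 (SE 0.15), and Ifit1, a sensor of foreign RNA, by 0.50 (SE 0.16, adjusted p = 0.0106).

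The core of the interferon response element was searched on both strands of windows from 250 bases before to 50 after the start site (RefSeq, GRCm38.p6). Of 23 members with a window, 12 (52.2%) held it and 11 did not, Ubd among the latter, against 3.99% of 27025 genes that held it. The 150 bases before the start site are shown for 3 of the genes just described, read 5′ to 3′ on the strand of the gene, to show where the element lies. Capitals mark matches on either strand, which overlap one another in Isg15. A match describes the letters and is no measure of binding.
Isg15 (chr4:156200819-156200968, minus strand): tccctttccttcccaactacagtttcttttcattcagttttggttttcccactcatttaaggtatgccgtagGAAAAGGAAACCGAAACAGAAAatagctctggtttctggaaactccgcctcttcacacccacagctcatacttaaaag
Ifit1 (chr19:34640739-34640888, plus strand): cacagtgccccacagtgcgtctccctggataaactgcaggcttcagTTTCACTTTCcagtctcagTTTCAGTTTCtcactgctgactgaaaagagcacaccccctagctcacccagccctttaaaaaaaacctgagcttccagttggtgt
Gbp2 (chr3:142620513-142620662, plus strand): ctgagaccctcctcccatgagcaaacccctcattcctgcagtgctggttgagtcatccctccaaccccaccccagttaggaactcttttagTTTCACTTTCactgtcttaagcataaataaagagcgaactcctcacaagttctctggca

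Isg15 holds 3 matches, Ifit1 2 and Gbp2 1 in the stretches shown, while their rises ran in the order Gbp2, Isg15, Ifit1. Gbp2 held 2.35 to 6.46 CPM in chow and 9.87 to 28.3 CPM in HFHF, and Ifit1 5.84 to 8.71 CPM and 8.30 to 13.6 CPM, with overlap.

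Acute phase genes divided, with 11 higher, 8 lower and 8 not called of 27 (median 0.33). The share higher, 40.7%, was above the 28.1% over all genes tested, and the share lower, 29.6%, was near the 28.9%. Lcn2, an iron-carrier binding protein of the acute phase, held 2.87, 2.39, 2.12, 16.7 and 4.12 CPM in chow and 96.9, 125 and 211 CPM as lowest, median and highest in HFHF (4.72, SE 0.60). Saa1, serum amyloid A, held 22.2, 28.4, 31.2, 156 and 47.4 CPM in chow and 138, 191 and 288 CPM in HFHF (1.75, SE 0.44, adjusted p = 0.00241), although its reads may be split with near-identical Saa2. Chow replicate 4 stood above the other chow libraries in both genes and for Saa1 lay within the HFHF range. Without it Lcn2 was at 5.73 and Saa1 at 2.60. Orm2, an acute phase glycoprotein, rose by 2.28 (SE 0.32). Crp (-0.82, SE 0.09) and the fibrinogen chain Fga (-0.92, SE 0.11) fell without overlap.

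Antioxidant genes rose as a group, with 21 higher, 4 lower and 4 not called of 29 (median 0.81). Srxn1, which repairs oxidised peroxiredoxin, held 28.5, 27.2, 29.9, 29.8 and 30.0 CPM in chow and 91.6, 101 and 126 CPM as lowest, median and highest in HFHF. Both groups were tight and far apart (1.84, SE 0.13, adjusted p = 6.59e-10). Nqo1, a quinone reductase and NRF2 target, was at 1.42 (SE 0.27), Hmox1, heme oxygenase, at 1.26 (SE 0.13), and Cbr3, a carbonyl reductase, at 4.17 (SE 0.46). Genes of the unfolded protein response and ATF4 showed no common direction, with 8 higher, 9 lower and 10 not called of 27 (median -0.29). These shares, 29.6% higher and 33.3% lower, were near the 28.1% and 28.9% over all genes tested. The 9 lower became 3 with upper-quartile scaling or without chow replicate 4 or 5 and 5 without HFHF replicate 5. The chaperone Hspa5 was not called (1142 ± 539 and 856 ± 232 CPM). Gdf15, a stress hormone, was lower (-1.21, SE 0.42, adjusted p = 0.0207, and 0.0736 and 0.0687 without chow replicate 1 and 4) and Nupr1, a stress-induced chromatin protein, higher (4.13, SE 0.42). Of 18 p53 targets and senescence genes 11 were higher, 2 lower and 5 not called (median 0.59, and 0.75 without chow replicate 1). Cdkn1a, the p21 cell cycle inhibitor, rose from 6.80 ± 2.66 to 36.5 ± 10.5 CPM and the TNF receptor family gene Eda2r from 0.301 ± 0.141 to 4.81 ± 1.56 CPM. Mdm2, another p53 target, was not called (0.19, SE 0.09). It was called under 5 of 18 alternative settings, with adjusted p down to 0.0109. Among these were the fits without HFHF replicate 1 (0.23, adjusted p = 0.0349) and without chow replicate 5 (0.25, adjusted p = 0.0366).

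Cell cycle genes rose together. Of 29 members, 27 were higher, 0 lower and 2 not called, with a median of 1.68. Ccnd1, the cyclin that starts the cycle, went from 9.28 ± 2.09 to 54.5 ± 8.54 CPM (2.55, SE 0.20, adjusted p = 3.29e-09). Top2a, a topoisomerase of dividing cells, held 0.735, 1.46, 0.908, 1.41 and 1.09 CPM in chow and 5.03, 6.10 and 9.998 CPM as lowest, median and highest in HFHF. The groups did not overlap (2.52, SE 0.29). Top2a in HFHF replicates 2, 6 and 7, the livers of high Col1a1, was 6.47, 7.42 and 9.998 CPM. In the other 4 it was 5.03 to 6.10 CPM. Ubd overlapped, at 17.3, 19.5 and 29.1 CPM in replicates 2, 6 and 7 and 14.5 to 24.3 CPM in the others. Cidec overlapped too, at 73.2, 86.4 and 92.6 CPM and 72.2 to 85.3 CPM. These replicates were set apart after the Col1a1 values were seen, and a link of Col1a1 with Top2a was not tested. Because Col1a1 fell into 2 separate ranges, no correlation across the 7 libraries is given. Mki67, the proliferation marker, was at 2.46 (SE 0.29), and Mcm6, a subunit of the replicative helicase, at 1.68 (SE 0.21).

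The E2F element, in either of 2 spellings, was found in the windows of 5 of 23 cell cycle members (21.7%) and of 1.80% of all genes, searched on both strands. Mcm6 holds it at 2 places, in capitals in the 150 bases before its start site, shown as the one cell cycle promoter to set beside its rise.
Mcm6 (chr1:128359706-128359855, minus strand): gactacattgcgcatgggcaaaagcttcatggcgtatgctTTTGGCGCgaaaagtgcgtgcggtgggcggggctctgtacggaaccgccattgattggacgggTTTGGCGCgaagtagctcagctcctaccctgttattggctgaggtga

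Of the other motifs searched, the antioxidant response element was in 6 of 25 members (24%) and 13.99% of all genes. The sterol response element was in 0 of 17 cholesterol genes with a window and 0.27% of all genes, and the direct repeat of the nuclear receptor half-site was in 0 of 24 oxidation genes and 0.048%.

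Genes of hepatocyte injury, the cytoskeleton and dedifferentiation rose strongly. Of 28 measured members, of 33 listed, 24 were higher, 0 lower and 4 not called, with a median of 1.98. Ly6d (chromosome 15, 74762056 to 74763620, minus strand), a small surface protein of the Ly6 family, held 0.294, 0.332, 0.303, 0.446 and 0.156 CPM in chow and 61.7, 88.3 and 171 CPM as lowest, median and highest in HFHF (8.30, SE 0.72, adjusted p = 4.34e-08). Sprr1a, a squamous envelope protein, had 0 counts in chow and 6.09 to 20.8 CPM in HFHF. Against a floor of 3 counts over the chow group Sprr1a was 237-fold higher, and the lower limit of its 95% counting interval was 193-fold. Anxa2, a membrane-binding annexin, rose from 10.7 ± 1.49 to 182 ± 36.6 CPM and Tmsb10, an actin-binding peptide, from 8.68 ± 1.05 to 53.9 ± 11.9 CPM. Krt8, the keratin of hepatocytes, rose by 1.24 (SE 0.10), although processed pseudogenes may share its reads. The fetal liver gene Afp held 0.441 to 0.664 CPM in chow and 1.19 to 2.63 CPM in HFHF.

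Other genes among the largest rises were Sdcbp2, a syntenin, and Shc2, a signalling adaptor, each with 3 counts over the chow libraries and ratios of 224 (95% counting interval 76.3 to 1090) and 193 (65.8 to 936). The fitted log2 fold change of Sdcbp2 was 7.58, or 8.57 without chow replicate 2, its highest chow library (0.133 CPM). Rad51b, a DNA repair gene, held 0.147 to 0.531 CPM in chow and 19.2 to 27.5 CPM in HFHF (6.28, SE 0.50), and Ephb2, a receptor of ephrins, 0 to 0.531 and 11.6 to 28.6 CPM (5.98, SE 0.55). Unc5b, a netrin receptor, was with Ubd and Gramd1b among those 3 rises (1.75 ± 0.357 to 10.7 ± 1.04 CPM).

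Bile duct markers were less uniform. Of 13 measured members, of 20 listed, 7 were higher, 1 lower and 5 not called, with a median of 1.04. Epcam, an epithelial adhesion molecule (1.24, SE 0.33), and Krt19, a duct keratin (1.46, SE 0.45), rose with overlapping groups, and Sox9, a duct and progenitor transcription factor, was not called (0.42, SE 0.27). Spp1, osteopontin, which ducts and macrophages both make and which is counted in both lists, rose from 19.9 ± 3.14 to 158 ± 54.6 CPM.

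**Figure D3:**
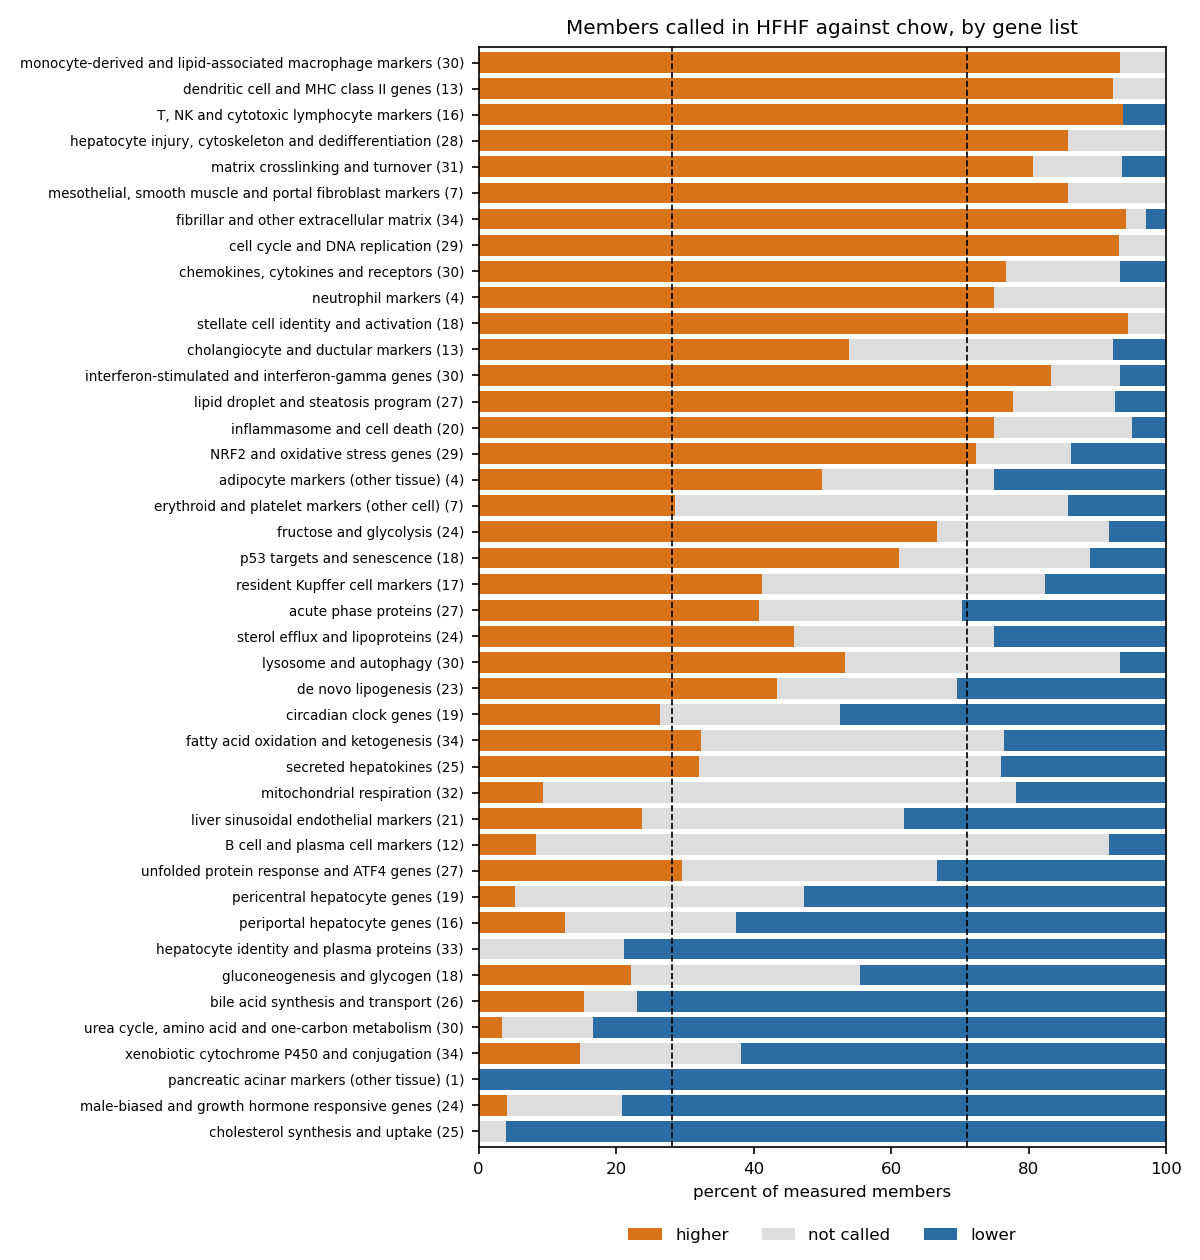
Share of measured members of each of 42 gene lists called higher, not called or called lower in HFHF, with the number measured in brackets. The dashed lines mark the shares over all genes tested, 28.1% higher from the left and 28.9% lower from the right. Lists are ordered by median log2 fold change, with cholesterol synthesis (24 of 25 lower) and markers of macrophages that enter the liver (28 of 30 higher) at opposite ends.

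Genes of mature hepatocyte function fell. Of 33 hepatocyte identity genes, 0 were higher, 26 lower and 7 not called, with a median of -0.59. Alb fell from 59814 ± 6944 to 39901 ± 5821 CPM (-0.58, SE 0.15) and Hnf4a, the master regulator of hepatocytes, from 527 ± 56.0 to 389 ± 16.9 CPM (-0.44, SE 0.09). Of 30 genes of the urea cycle, amino acid and one-carbon metabolism, 1 was higher, 25 lower and 4 not called (median -0.77). Cps1, the entry enzyme of the urea cycle, held 6563, 5144, 5886, 4454 and 4506 CPM in chow and 1385, 1747 and 2226 CPM as lowest, median and highest in HFHF. The lowest chow library was 2.001 times the highest HFHF library (-1.56, SE 0.19, adjusted p = 5.57e-07). Gnmt, a glycine methyltransferase, fell by 1.49 (SE 0.20) and Hal, histidine ammonia-lyase, by 2.03 (SE 0.22).

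Both ends of the liver lobule were affected. Of 19 pericentral genes 1 was higher, 10 lower and 8 not called (median -0.44), and of 16 periportal genes 2 were higher, 10 lower (6 with no low-count filter) and 4 not called (median -0.48). Cyp1a2 and Cyp2e1, pericentral cytochromes, fell by 2.59 (SE 0.18) and 1.10 (SE 0.18). Glul, glutamine synthetase of the innermost cells (-0.13, SE 0.10), and Axin2, a WNT target (-0.16, SE 0.13), were not called. The periportal cytochrome Cyp2f2 fell by 1.07 (SE 0.11).

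Of 26 genes of bile acid synthesis and transport, 4 were higher, 20 lower and 2 not called, with a median of -0.76. Slc10a1, which takes bile acids up from blood, held 661, 572, 473, 453 and 435 CPM in chow and 115, 157 and 204 CPM as lowest, median and highest in HFHF. Abcb11, which exports them into bile, fell by 1.13 (SE 0.15), Cyp8b1, which makes cholic acid, by 1.38 (SE 0.20), and Cyp7b1, an enzyme of the alternative pathway, by 2.90 (SE 0.42). Cyp7a1, the rate-limiting enzyme of the classical pathway, held 67.6, 39.6, 227, 47.5 and 110 CPM in chow and 11.2, 34.7 and 60.6 CPM in HFHF, with overlap and a wide spread in chow (-1.45, SE 0.45, adjusted p = 0.0104). Without chow replicate 3, the 1 of 227 CPM, it was at -0.84 and not called (adjusted p = 0.0925). The 4 that rose included Abcc4 (1.61, SE 0.38) and Abcb1a (2.43, SE 0.36), efflux pumps that also carry drugs. Of 34 genes of drug oxidation and conjugation 5 were higher, 21 lower and 8 not called (median -0.85), with 3 higher when chow replicate 1 or 5 was left out. Cyp2b10, a target of the receptor CAR, fell from 11.4 ± 6.84 to 0.710 ± 0.530 CPM (-3.98, SE 0.58) and Cyp2c54 from 530 ± 124 to 21.8 ± 14.8 CPM (-4.60, SE 0.56). Cyp3a11 was not called (-0.43, SE 0.19, adjusted p = 0.0617) but was under 2 of 18 alternative settings. These were the fit without HFHF replicate 3 (-0.50, adjusted p = 0.0386) and the fit of only the 12 libraries compared (adjusted p = 0.00795). The Cyp2b and Cyp2c families have near-identical members that could share reads.

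Several of the largest falls were in genes that male mouse liver expresses under pulses of growth hormone. Of 24 measured genes of that list, 1 was higher, 19 lower and 4 not called, with a median of -1.63. Hsd3b5 (chromosome 3, 98618634 to 98630252, minus strand), a male-specific steroid reductase, held 277, 190, 214, 233 and 238 CPM in chow and 0.0515, 0.279 and 7.38 CPM as lowest, median and highest in HFHF (-7.49, SE 1.30, adjusted p = 0.000101). Elovl3, a fatty acid elongase, fell by 2.53 (SE 0.64), Slco1a1, an organic anion transporter, by 3.53 (SE 0.99), and Cyp4a12a, a fatty acid hydroxylase, by 1.33 (SE 0.34). Igf1 (-0.76, SE 0.10) and Ghr, the growth hormone receptor (-0.65, SE 0.08), fell less, and Socs2, a feedback inhibitor of the same receptor, was not called (-0.08, SE 0.48). Serpina1e, of the alpha-1-antitrypsin family, fell by 5.42 (SE 1.03). Adgrf1, an adhesion receptor outside this list, was at -7.11 (SE 0.60). The sex of the mice is not given, so sex and diet cannot be told apart for the male-biased genes.

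HFHF replicate 2 had more of the male-biased transcripts than any other HFHF library. It held 7.38 CPM of Hsd3b5, 170 CPM of Slco1a1 and 288 CPM of Elovl3, where the other 6 held at most 1.01, 35.0 and 164 CPM. Without it the log2 fold change was -9.31 for Hsd3b5, -4.47 for Slco1a1, -6.08 for Serpina1e and -7.52 in place of -5.50 for Mup7. The median level of the list, on the log2 scale relative to the chow mean, was -0.80 in replicate 2 and -2.37 to -1.47 in the others. The same library had 998 CPM of Mup7 (chromosome 4, 60066469 to 60070475, minus strand), a major urinary protein gene, where the other 6 held 12.3 to 70.2 CPM and the chow libraries 5192, 6972, 8009, 8830 and 11772 CPM. Of 21 Mup genes tested, a family chosen after its values were seen, 19 were lower and 1 higher. The 1 that rose was Mup20 (5209 ± 1351 to 12958 ± 3256 CPM, 1.31, SE 0.30). Mup genes are nearly identical in sequence, so how reads divided among them is uncertain.

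**Figure D4:**
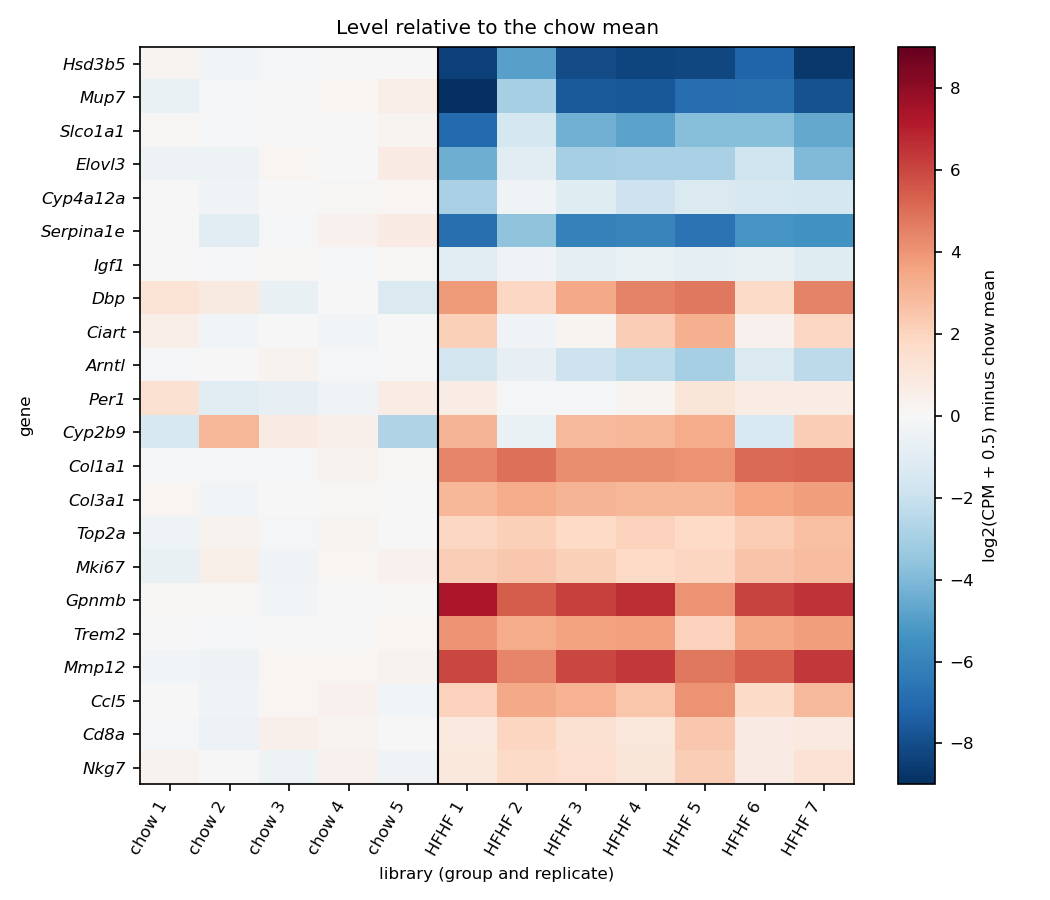
Log2(CPM + 0.5) relative to the chow mean for male-biased, clock, collagen, macrophage and lymphocyte genes (rows) in the 5 chow and 7 HFHF libraries (columns), blue for lower and red for higher. HFHF replicate 2 is paler than its group in the male-biased rows, and HFHF replicates 2 and 6 are paler than the rest in Dbp and Arntl.

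Clock genes moved in both directions, with 5 higher (3 in a fit of only the 12 libraries), 9 lower and 5 not called of 19 (median 0.15, and -0.06 without chow replicate 5). Dbp, an output gene of the clock, held 4.04, 2.92, 0.757, 1.41 and 0.311 CPM in chow and 6.03, 27.1 and 51.8 CPM as lowest, median and highest in HFHF (3.89, SE 0.73). Arntl, the core activator BMAL1, held 25.1, 27.8, 37.0, 27.2 and 29.6 CPM in chow and 3.30, 7.45 and 17.4 CPM in HFHF (-1.79, SE 0.37). HFHF replicates 2 and 6 had the lowest Dbp (6.83 and 6.03 CPM) and the highest Arntl (17.4 and 11.7 CPM) of their group. They also had the lowest Cyp2b9 (3.29 and 1.71 CPM against 26.3 to 59.3 CPM), a cytochrome whose groups overlapped (1.34, SE 1.00, adjusted p = 0.268). Chow replicate 2 held 44.8 CPM of Cyp2b9, and without it the gene was called (2.85, adjusted p = 0.0453). Nr1d1, Per1 and Per2, repressors of the clock, were not called, except Per1 without chow replicate 1 (0.80, adjusted p = 0.0269). Collection times are not given, so time of day and diet cannot be told apart for clock genes.

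Sinusoidal endothelial markers divided, with 5 higher, 8 lower and 8 not called of 21 (median -0.12). These shares, 23.8% higher and 38.1% lower, compare with 28.1% and 28.9% over all genes tested. The 8 lower became 4 with upper-quartile scaling and 4 or 5 without chow replicate 2, 4 or 5 or HFHF replicate 5. Lyve1, a hyaluronan receptor (1.32, SE 0.32), and Plvap (1.21, SE 0.13) and Cd34 (1.77, SE 0.26), markers of capillary endothelium, rose, Clec4g, a sinusoidal lectin, fell (-0.66, SE 0.18), and Stab2, a scavenger receptor, was not called (-0.06, SE 0.12). Of 25 secreted hepatokine genes 8 were higher (32.0%), 6 lower (24.0%) and 11 not called (median -0.09), near the shares over all genes tested. Of 30 lysosome and autophagy genes 16 were higher, 2 lower and 12 not called (median 0.22). Gpnmb, described above among the macrophage markers, is counted in the hepatokine and the lysosome lists too. Ctsd, a lysosomal protease, rose from 229 ± 6.28 to 395 ± 34.0 CPM (0.79, SE 0.08). Flcn, the target of the guide in the third group, was not called (22.2 ± 6.03 and 20.7 ± 2.98 CPM, -0.10, SE 0.13).

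Of 12 pancreatic acinar markers 11 did not pass the low-count filter, among them Cela3b and Pnlip with 0 counts in both groups and Prss2 with 0 and 1. The 1 measured, the elastase gene Cela1, was not near 0 (18.1 to 23.8 CPM in chow, 5.55 to 13.9 CPM in HFHF) and fell by 1.23 on the log2 scale (SE 0.18). Of 10 adipocyte markers 6 did not pass, among them Adipoq, adiponectin, with 2 counts over the chow libraries and 0 over the HFHF libraries. Of the 4 measured, 2 were higher and 1 lower (2 lower in a fit of only the 12 libraries), and their summed level was 3150 to 4840 CPM in chow and 1220 to 2410 CPM in HFHF. Most of that sum was Car3, a carbonic anhydrase, which fell from 3874 ± 685 to 1691 ± 408 CPM. Fabp4, a fatty acid carrier, rose from 7.75 ± 1.17 to 35.4 ± 10.01 CPM. Cela1, Car3 and Fabp4 were named after their values were seen. Cfd, adipsin, rose from 0.163 ± 0.103 to 2.09 ± 2.07 CPM, with 6.34 CPM in HFHF replicate 2. The part of fat or pancreas in the other results was not tested. Erythroid and platelet genes numbered 2 higher and 1 lower of 7, with 5 higher when HFHF replicate 4 was left out and 4 higher without HFHF replicate 1 or with upper-quartile scaling, and their summed level was 311 to 490 CPM in chow and 294 to 805 CPM in HFHF.

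Spread between libraries was alike in both groups, with a median SD of log2(CPM + 0.5) over genes of 0.172 in chow and 0.170 in HFHF. Among the genes of widest spread in HFHF were Onecut1, a hepatocyte transcription factor, at 0.838 to 51.8 CPM (-1.32, SE 0.80, adjusted p = 0.173, and -2.22 with adjusted p = 0.0200 without HFHF replicate 4), and Eif3j2, a copy of a translation factor gene, at 0.309 and 1.56 CPM in replicates 7 and 4 and 43.9 to 53.8 CPM in the other 5. Chow replicate 2 held 1.26 CPM of Eif3j2 and the other chow libraries 54.9 to 65.2 CPM. Hamp, the iron hormone hepcidin, held 8.79 CPM in HFHF replicate 2 and 83.8 to 199 CPM in the other 6.

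**Figure D5:**
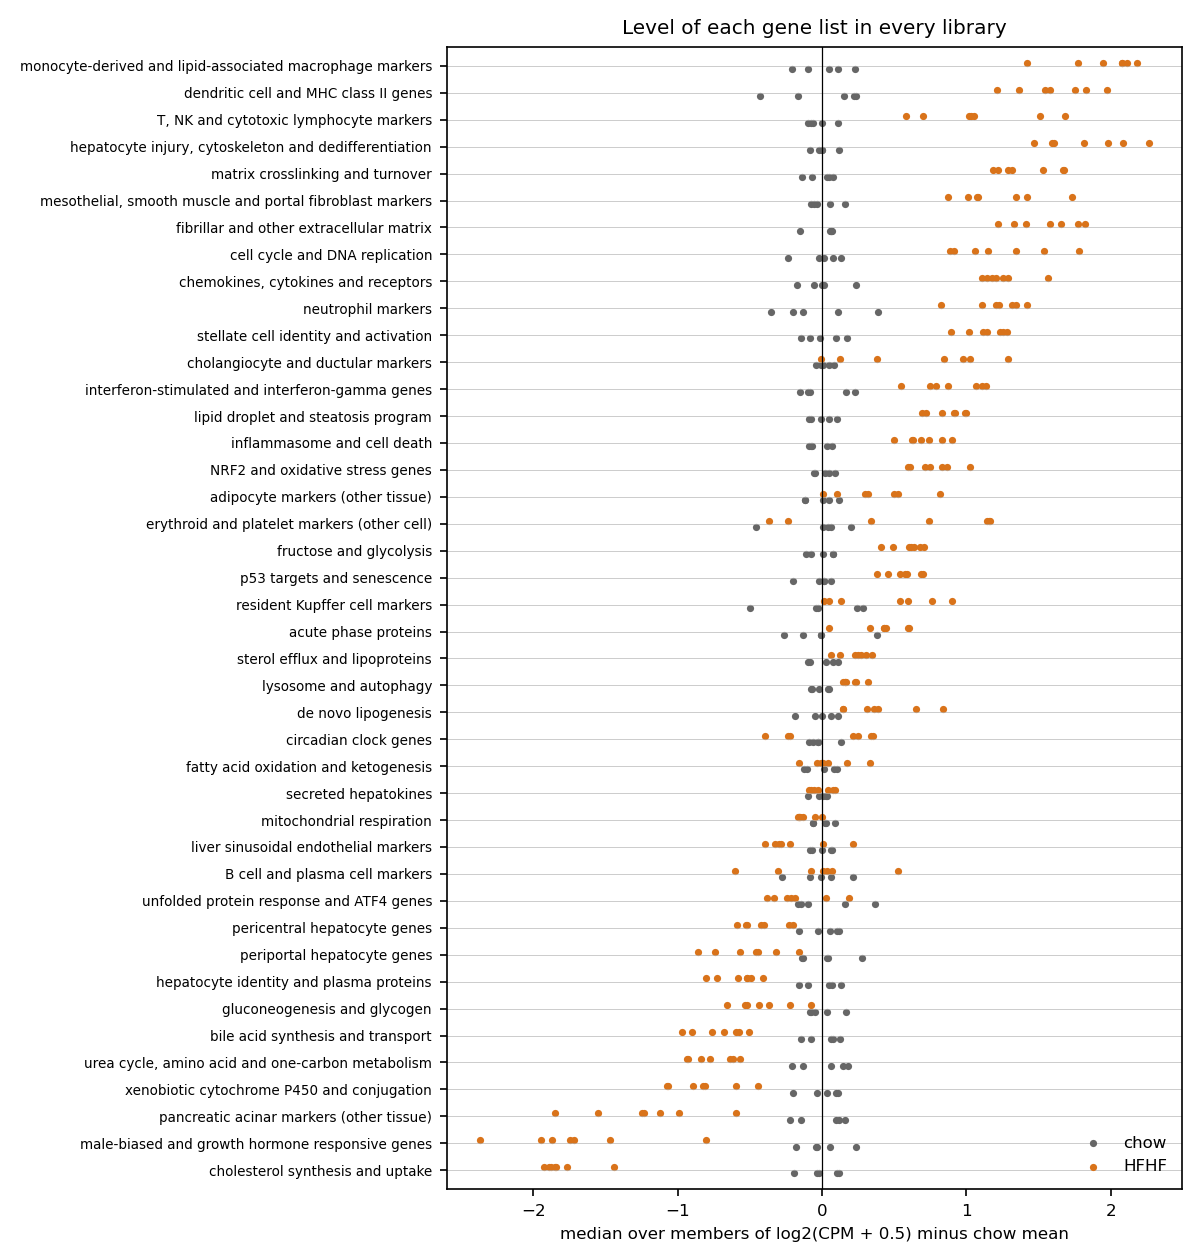
Median level of each gene list in every library, as log2(CPM + 0.5) relative to the chow mean (x), for 5 chow libraries (grey) and 7 HFHF libraries (orange). Matrix, macrophage, cell cycle and injury lists lie wholly to the right of chow and cholesterol synthesis and male-biased genes wholly to the left, and HFHF replicate 2 is the rightmost orange point for male-biased genes.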

How the data were processed

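Liver mRNA was sequenced as poly(A) libraries with single-end reads, per the labels' protocols. The authors deposited expected counts, which can be fractional (77.8% of values of at least 1 were whole). The genome build was GRCm38, per the submitters' processing notes. For the aligner, the counting tool, strand and use of molecular identifiers: not given in the sources used here. Counting intervals cover counting error only.

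Columns were matched to samples by library name, and 1 column that matched no label was not used. Of 32422 features, 22 construct sequences with 7 counts in all were left out, and 32325 of 32400 genes had a symbol in GENCODE M21. Counts were rounded. edgeR 4.0.16 (R 4.3.3) with filterByExpr on 3 groups kept 13667 genes, scaled with TMM factors and fitted all 20 libraries in 1 robust quasi-likelihood fit (17 residual degrees of freedom, biological coefficient of variation 0.164), with Benjamini-Hochberg adjustment over all genes tested. DESeq2 1.42.0 was an alternative. Tested on simulated data of 13484 genes for this contrast, the fit called 55.2% of true 1.5-fold, 94.0% of true 2-fold and 98.5% of true 4-fold changes, with 5.71% false calls. Only 200 genes, of mean above 1 CPM, were changed there, in random directions. The simulation therefore does not give the share of false calls in a contrast where 57.0% of genes were called.

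List counts cover members that passed the filter, and a low gene could pass through the group in which it was high. Promoter windows came from RefSeq. The members and the 42 gene lists were chosen with earlier results of these data known. Named genes were the 10 largest rises and falls of named, non-overlapping genes of at least 2 log2 CPM, the 3 smallest p each way, key members and up to 4 of smallest p per list, the 10 of widest HFHF spread from 5 CPM, and Flcn. Some are left out for length or are not reported here. A planned correlation of Col1a1 with 6 genes is not given because Col1a1 fell into 2 ranges.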

Additional observations from a re-analysis of the deposited data

Results flagged for a closer look

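For 160 of the genes named, the 5 chow and the 7 HFHF libraries were each searched for a single library far from the rest of its group. One library stood apart in 21 of 320 groups (6.56%), where chance gives about 1 in 20. These genes were chosen partly for wide spread in HFHF or after their values were seen, so that share is a description and not a test. HFHF replicate 2 was that library in 6 of the 21. It lay above the other HFHF libraries for the lipogenic genes Fasn (1073 CPM), Acaca (278 CPM) and Acly (323 CPM) and for the male-biased genes Hsd3b5 (7.38 CPM) and Mup7 (998 CPM), and below them for Hamp (8.79 CPM).

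Among the other HFHF libraries, replicate 5 was low for Trem2 (2.29 CPM), replicate 6 for Lrat (23.6 CPM) and replicate 7 for Cd4 (0.618 CPM). In chow, replicate 1 was low for Mogat1 (0.147 CPM) and Anxa2 (8.16 CPM). Chow replicate 2 was low for Thbs1 (0.465 CPM) and Eif3j2 (1.26 CPM). Chow replicate 3 was low for Mmp13 (0 CPM) and Epcam (0.378 CPM) and high for Postn (10.4 CPM). Chow replicate 4 was high for Fgf21 (1.04 CPM) and for Gzmk (0.0743 CPM, a single count). Chow replicate 5 was low for Crp (339 CPM), Cyp2e1 (5552 CPM) and Nr1d1 (10.9 CPM).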

How the results depend on the processing

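The counts of genes called stayed within 1.5 times the reported counts under every alternative, at 7610 to 7942 called with other scalings, DESeq2, no low-count filter, only the 12 libraries compared, or without the gRNA library whose title carries another number. Leaving out each library in turn gave 7204 to 7614 called, 3621 to 4005 higher, 3308 to 3844 lower and 49.5 to 54.1% of calls higher. Of the 7610 genes called with upper-quartile scaling 6838, and of the 7792 called by DESeq2 7633, were among those called here. No paired analysis was possible because the labels give no replicate numbers that the groups share.

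Of 2875 values of single genes under the alternatives 2833 kept their direction and side of the threshold, 17 lost the call, 10 gained it and 15 changed sign, all 15 in genes not called. Upper-quartile scaling turned Socs2 to 0.01 and Stab2 to 0.03. Leaving out each library in turn gave ranges that crossed 0 for Flcn (-0.16 to 0.11), Acadm (-0.03 to 0.06), Myh11 (-0.05 to 0.23), Socs2 (-0.25 to 0.19), Nr1d1 (-0.06 to 0.36), Stab2 (-0.14 to 0.01) and Hamp (-0.40 to 0.02). The median of clock genes was -0.04 with only the 12 libraries and -0.06 to 0.28 without 1 library, and that of hepatokines 0.00 with upper-quartile scaling. The level of 2 lists changed sign with the summary used. As a mean over members the level in HFHF was 0.16 for unfolded protein response genes and 0.43 for hepatokines. As a median over members both levels were negative on average over the HFHF libraries. The cause was not tested. Depth limits genes with few chow counts. For the 6 named genes with at most 3 chow counts folds are given as bounds or with counting intervals, and the fitted folds of others, such as Gpnmb (7 chow counts), Cidea (11) and Mmp12 (19), also rest on few counts.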
